A study of Mus musculus with 3 samples.

Results

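Cyclic AMP is a second messenger that G-protein-coupled receptors raise through Gs and lower through Gi, and 35 mouse genes of its signalling and of G-protein control were followed here among the 54331 features of the deposited table. They were taken by symbol from a fixed list of adenylyl cyclases, phosphodiesterases, protein kinase A (PKA) subunits, CREB factors with their coactivators, NR4A nuclear receptors, A2 adenosine receptors, RGS proteins and GPSM proteins. G-alpha subunits were not part of the list. All 35 symbols matched 1 protein-coding feature each.

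The samples were RAW 264.7 cells, a mouse macrophage line of male BALB/c origin, stimulated with 100 ng/mL lipopolysaccharide (LPS, which signals through TLR4) for 5 h. The labels' source field spells the line's name differently from their protocols. The control library, 1 in all, came from cells with a control shRNA and is labelled wild-type. The other 2 came from cells with different shRNAs against GIV (Girdin, gene Ccdc88a), are labelled GIV-depleted and are called by the sh1 and sh2 of their titles. All 3 libraries received LPS, so nothing below separates the effect of LPS from the resting state, and the labels do not say whether a library came from 1 clone or a pool of transduced cells.

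Adenylyl cyclases make cAMP, phosphodiesterases break it down, and cAMP frees the catalytic subunits of PKA from its regulatory subunits. PKA phosphorylates CREB, which with its CRTC coactivators switches on genes that carry a cAMP response element (CRE), the NR4A receptors among them. RGS proteins speed GTP hydrolysis on G-alpha, GPSM proteins bind Gi-family G-alpha subunits in their GDP form, and GIV itself is a scaffold that acts on Gi and Gs. In macrophages a rise in cAMP, for instance through adenosine or prostaglandin receptors, is known to restrain cytokines such as TNF.

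Values are the authors' normalized counts, which totalled 47349097 to 49756670 per library, with 20030 to 20590 features above 0. A value of about 1 stands for about 1 read. Where 3 values follow a gene without names, they are those of the control and of the libraries labelled sh1 and sh2, in that order. Ccdc88a, the targeted gene, had 2580 normalized counts with the control shRNA, 1734 in the library labelled sh1 and 2561 in that labelled sh2, so mRNA of the library labelled sh2 goes against that label. Every statement below on both libraries rests in part on it. All 9 macrophage markers had a mean value of at least 10, with a sum of 452958 in the control against 343547 and 366179 in the libraries labelled sh1 and sh2. Among them Lyz2, which had the largest values in the control, had 199781, 121997 and 138145, and Csf1r had 18776, 9476 and 15612. Cd68, Fcgr1, Mertk and Spi1 were also below the control in both libraries. Cd14 had 119577, 122965 and 112411, Itgam had 19994.5, 18123 and 24136, and Adgre1 had 7150, 6272 and 7912. For these last the control lay between the other libraries. Of the 4 T-cell, 4 fibroblast and 4 epithelial markers none reached that mean, and each list summed to between 0 and 12.3 per library. The 4 dendritic-cell markers summed to 398, 300 and 357, mostly Xcr1 (383, 278 and 320), with Flt3 at 0 in all 3 libraries. The 5 neutrophil and mast-cell markers summed to 69.3, 46.7 and 101, mostly S100a8 (68.8, 45.6 and 75.5), with Ly6g and Cpa3 at 0 in all 3 and Kit at 24.2 in the library labelled sh2. Of B-cell markers, Ms4a1 had 6.56, 8.87 and 20.2 and Cd79a had 1.87, 1.12 and 6.72. Mitochondrially encoded transcripts took 1.43% of the control's total against 0.995% and 1.14% in the libraries labelled sh1 and sh2, and the part of these and of the marker levels in the results was not tested. These are bulk libraries, in which fewer cells of a type and less RNA per cell cannot be told apart.

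Among the tested members, every CREB factor, PKA catalytic subunit and the main cyclase lay within 1.5-fold of the control in both libraries. Those outside that range in at least 1 library were the 3 NR4A receptors, 3 RGS genes, both A2 adenosine receptors, Prkar2b, Gpsm2, Adcy9 and Pde7a. The share of all tested features outside it in at least 1 library was not counted, so nothing is read from their number. The comparison asks how transcripts of LPS-treated macrophages with shRNAs against GIV differ from those with a control shRNA. Of the 35 members, 31 had a mean value of at least 10 and were tested, and the 4 below it were Adcy3, Adcy4, Adcy6 and Pde3b. Taking at least 1.5-fold in the same direction in both libraries as the size rule, on the log2(value + 1) scale used for every difference and fold here, 1 of the 31 was higher (Nr4a1), where 5.09% of the 13877 tested features were. The same rule gave 2 lower members (Nr4a2 and Prkar2b), against 2.82% of all tested features. Both libraries lay above the control for 10 members and below it for 10, against 34.9% and 35.2% of all tested features, and for the other 11 the control lay between them, as it did for 29.7% of all tested features. Taken singly, the library labelled sh1 had 4 members at least 1.5-fold higher and 4 lower (8.83% and 7.85% of all tested features), and that labelled sh2 had 3 higher and 5 lower (9.99% and 7.19%). The median log2 difference over the members was 0.01, and over all tested features it was -0.00147.

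With 1 control and 2 libraries labelled GIV-depleted, limma had 1 residual degree of freedom per feature, and the lone control was assumed to vary like the other pair. At an adjusted p of 0.05 it called no member, with a lowest value of 0.69, and 0% of the 13877 features. At an unadjusted p under 0.05 there were 2 members, Adora2b and Nr4a1, while 6.94% of all tested features passed that line. Separate cultures are not stated in the labels, so these p-values rest on no known spread between cultures. The spread they use is that between the libraries labelled sh1 and sh2, which carry different shRNAs, pooled by limma across features.

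Levels of different genes were compared per kilobase of merged exon. On that scale Prkar1a (3465 normalized counts per kilobase), Adora2b (3396), Adcy7 (2381), Rgs1 (2119) and Rgs16 (1999) led the members in the control. By this length, in the library labelled sh1 the order began with Rgs1 (3638), Prkar1a (3414) and Rgs16 (3371), and in that labelled sh2 with Prkar1a (2964), Adcy7 (2172) and Adora2b (2078). With the longest transcript as length, Rgs1 had 1393 normalized counts per kilobase in the control, below Rgs19 (2187), Rgs16 (1999) and Rgs2 (1933), and in the library labelled sh1 it had 2392, below Prkar1a (3956), Rgs16 (3371) and Adora2b (2591). The place of Rgs1 thus depends on the length used, and Prkar1a was first in all 3 libraries on the longest-transcript scale. Each order rests on single libraries, so neighbours in it cannot be ranked beyond error. The lowest tested member in the control was Nr4a3, at 2.43, a level that 2.34% of tested features did not reach.

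**Figure D1:**
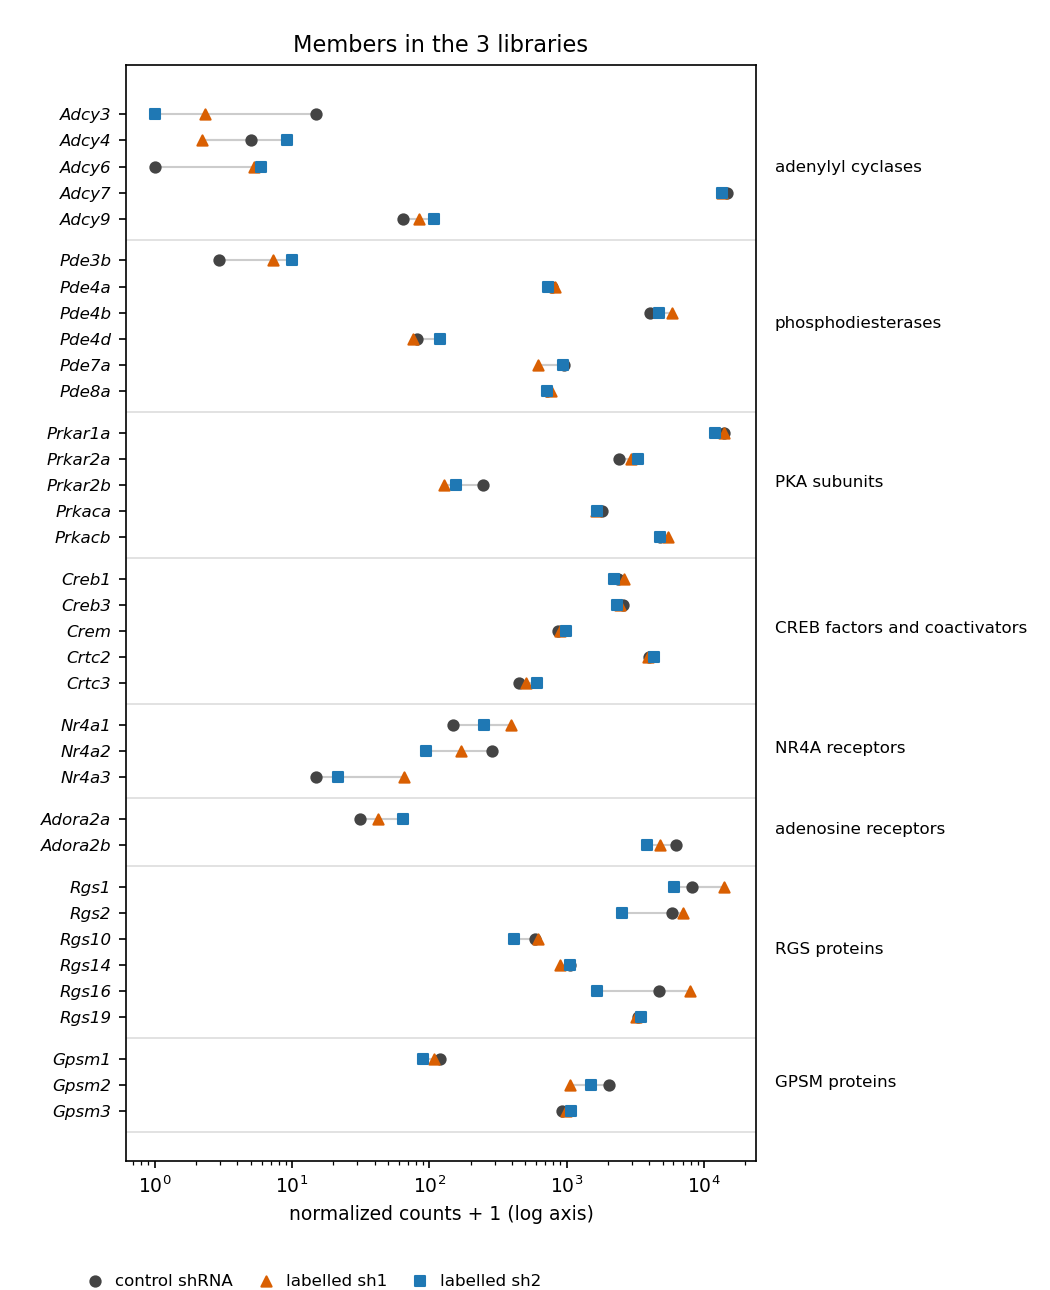
Normalized counts plus 1 on a log axis for the 35 members, 1 row per gene grouped by role, with 1 point per library (circle, control shRNA; triangle, labelled sh1; square, labelled sh2) and no error bars, since each point is a single library. Adcy7 and Prkar1a lie at 12064 or above in all 3 libraries with points that nearly coincide, whereas the points of the NR4A receptors, Rgs2 and Rgs16 are spread out.

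The A2 adenosine receptors, which both couple to Gs and raise cAMP, had opposite differences. Adora2b (ENSMUSG00000018500.2, chromosome 11, 62248984 to 62266453, GRCm38), the low-affinity receptor, had 6265 normalized counts with the control shRNA, 4781 in the library labelled sh1 and 3834 in that labelled sh2. The control was the highest of the 3 libraries. Its log2 difference from the control was -0.55 (SE 0.18), with a limma p of 0.040 and an adjusted p of 0.69. Adora2a, the high-affinity receptor, had 30.1 in the control, 41.5 and 63.1, so the control was the lowest, and the difference was 0.75 (SE 0.47; adjusted p = 0.80 in limma). Per kilobase of exon, the scale on which genes can be compared, Adora2b made up 94.1% of the summed level of 4 adenosine receptor genes in the control, 95.8% in the library labelled sh1 and 93.8% in that labelled sh2. The family's sum was 3609 normalized counts per kilobase in the control, 2705 and 2215. With a trend of the differences with transcript length and GC content removed, Adora2a also met the 1.5-fold rule in both libraries.

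Among the adenylyl cyclases, Adcy7, a calcium-insensitive isoform common in blood cells, dominated. It had 14805 normalized counts with the control shRNA, 13419 in the library labelled sh1 and 13506 in that labelled sh2, a difference of -0.14 (SE 0.12; adjusted p = 0.84 in limma). Its share of the per-kilobase level of all 10 cyclase genes was 94.6%, 94.5% and 93.2% in that order, and its control level per kilobase exceeded that of 88.9% of tested features. The next share was that of Adcy2, with 4.74% to 5.79%. Adcy9, an isoform little affected by forskolin, had 63.7, 83.2 and 107 normalized counts, with the control lowest and a difference of 0.56 (SE 0.37).

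The remaining cyclases lay near the detection floor, where single reads move the values. Adcy3, a calmodulin-responsive isoform, had 13.9 normalized counts with the control shRNA, about 15 reads, and 1.34 in the library labelled sh1, and was listed at 0 in the library labelled sh2. Adcy6, an isoform inhibited by calcium, had 4.33 and 4.96 in the libraries labelled sh1 and sh2 and was listed at 0 with the control shRNA. Adcy4 had 4.05, 1.20 and 8.24.

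None of the 5 tested phosphodiesterases on the list was past 1.5-fold in both libraries. Over all tested features 5.09% were higher and 2.82% lower by that rule, so nothing is read from so few genes. Pde4b, the PDE4 isoform that LPS is known to induce in macrophages, had 4013 normalized counts with the control shRNA, 5899 in the library labelled sh1 and 4713 in that labelled sh2. The control was lowest, and the difference was 0.39 (SE 0.19; adjusted p = 0.74 in limma). Pde7a, another cAMP-specific enzyme, was low in 1 library, with 949 with the control shRNA, 623 in the library labelled sh1 and 939 in that labelled sh2. Pde4d, a PDE4 isoform of lower level here, was high in the other, with 80.7, 75.6 and 118. Pde4a (779, 823 and 729) and the high-affinity Pde8a (720, 770 and 715) had 0.936 to 1.07 times the control's value in each library. Pde3b, which cGMP inhibits, had 1.93, 6.22 and 8.98, more than 1.5-fold higher in both libraries but under the filter and on few reads.

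Set among all 16 cAMP-hydrolysing phosphodiesterase genes looked up, Pde4b took 11.3% of the per-kilobase level in the control, 20.0% in the library labelled sh1 and 16.9% in that labelled sh2. The largest contributor by merged exon length was Pde2a, a cGMP-stimulated enzyme that is no member of the list, which had 8011 normalized counts with the control shRNA, 5380 and 5271. Its share of 41.5% in the control stood against 33.7% and 34.9%. Relative to the control, Pde4b thus had a larger share, and Pde2a a smaller, in both libraries labelled GIV-depleted. Pde1b, also not on the list, came between them by this length, with 28.6%, 26.8% and 26.9%. The family's sum was 4364 normalized counts per kilobase in the control, 3610 and 3414, so the shares refer to totals that differ. With the longest transcript as length in place of merged exons, Pde4b took 19.2% in the control, 31.95% and 27.6%, and Pde2a took 39.1%, 29.7% and 31.5%. Pde1b took 22.7%, 19.9% and 20.4% by that length. On that scale Pde4b was above Pde2a in the library labelled sh1, so which of them led there depends on the length used. The order of the 3 libraries was the same for each gene by either length.

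PKA subunits differed little except for Prkar2b. This type II regulatory subunit (ENSMUSG00000002997.15, chromosome 12, 31958476 to 32061296) had 244 normalized counts with the control shRNA, 126 in the library labelled sh1 and 156 in that labelled sh2. The control was 1.93-fold and 1.56-fold above them, and the difference was -0.80 (SE 0.30), with a limma p of 0.057 and an adjusted p of 0.73. Prkar2a, the other type II regulatory subunit, had 2412, 2939 and 3335, with the control lowest (difference 0.38, SE 0.15; adjusted p = 0.73 in limma). Prkar1a, a type I subunit, had 14104, 13897 and 12064.

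Per kilobase, Prkar1a made up 85.9% of the regulatory subunit level in the control, 84.3% in the library labelled sh1 and 80.4% in that labelled sh2. Prkar2a took 12.04%, 14.6% and 18.2%, so type I remained the bulk of the regulatory transcripts throughout. The catalytic subunits stayed close to the control. Prkaca had 1803, 1629 and 1663 normalized counts and Prkacb had 4778, 5498 and 4804. Prkacb took 55.9% to 61.7% of their per-kilobase level.

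**Figure D2:**
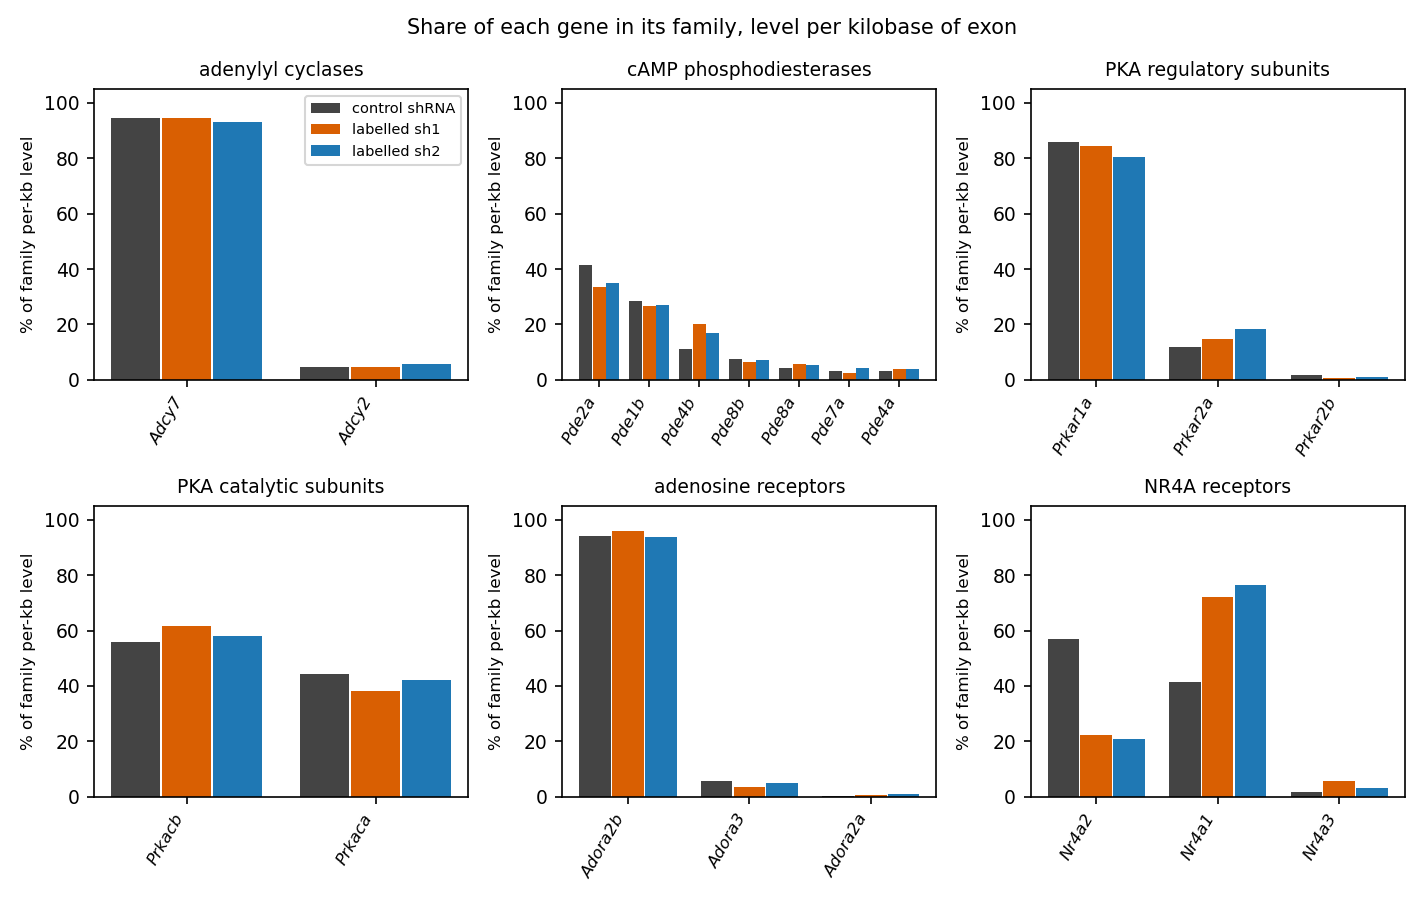
Bars give each gene's percentage of its family's summed level per kilobase of exon in the 3 single libraries (grey, control shRNA; orange, labelled sh1; blue, labelled sh2), for genes with at least 1% in some library. Adcy7 and Adora2b stand above 93% in every library, while Nr4a2 leads its family in the control (56.8%) and Nr4a1 leads in the other 2 (72.1% and 76.3%).

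CREB factors and their coactivators had no member past 1.5-fold in either library. The share of all tested features within that range in both libraries was not counted, so nothing is read from this. Creb1, the CREB protein itself, had 2354 normalized counts with the control shRNA, 2632 in the library labelled sh1 and 2222 in that labelled sh2. Creb3, a membrane-bound relative, had 2563, 2432 and 2325. Crem, whose locus also encodes the inducible repressor ICER, had 870, 896 and 988, and values per gene do not separate its isoforms. The coactivator Crtc2 had 3968, 3943 and 4339. Crtc3 had 450, 509 and 609, with the control lowest and the widest difference of the group at 0.30 (SE 0.22; adjusted p = 0.82 in limma).

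The NR4A receptors, orphan nuclear receptors and immediate-early genes, gave the 3 largest mean differences of the tested members, in opposite directions within 1 family. Their promoters are shown because all 3 hold several copies of the short core of the CRE. Each sequence is the 250 bases before the RefSeq start on the gene's strand, 5′ to 3′, GRCm38.p6, with capitals marking the CRE core site TGACG on either strand (CGTCA where it lies on the opposite strand).
Nr4a1, chr15:101266596-101266845, plus strand: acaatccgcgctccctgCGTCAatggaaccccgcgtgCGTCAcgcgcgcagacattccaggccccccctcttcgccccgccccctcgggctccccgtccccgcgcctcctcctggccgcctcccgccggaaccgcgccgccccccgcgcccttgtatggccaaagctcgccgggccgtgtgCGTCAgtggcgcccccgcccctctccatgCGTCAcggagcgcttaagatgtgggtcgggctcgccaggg
Nr4a2, chr2:57124004-57124253, minus strand: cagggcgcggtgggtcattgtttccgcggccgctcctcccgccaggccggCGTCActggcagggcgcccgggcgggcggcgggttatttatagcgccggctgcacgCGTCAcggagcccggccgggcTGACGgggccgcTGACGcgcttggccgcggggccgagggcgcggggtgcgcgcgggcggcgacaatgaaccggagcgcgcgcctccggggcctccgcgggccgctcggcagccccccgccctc
Nr4a3, chr4:48045055-48045304, plus strand: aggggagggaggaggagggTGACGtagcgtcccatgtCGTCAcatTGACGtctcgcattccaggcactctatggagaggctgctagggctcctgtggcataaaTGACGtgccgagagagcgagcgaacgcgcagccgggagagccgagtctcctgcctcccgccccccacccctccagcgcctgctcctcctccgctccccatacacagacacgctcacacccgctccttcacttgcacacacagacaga

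Each of these 3 windows held 4 core sites and none held the full CRE TGACGTCA, a palindrome that contains the core on each strand. Of 32851 RefSeq promoters searched in the same way, 45 held at least 4 core sites, or 0.137%. Among the 9178 promoters with a GC content of at least 60%, which these 3 also exceed at 63.6% to 80%, the share was 0.370%. The cutoff of 4 is the count in the windows shown, and these genes were listed as CREB targets. These shares are therefore a description and no test. Of the 27 members with a RefSeq promoter, 12 had a core site at some start, where 19.8% of all genes did. Prkar1a alone had the full CRE, in a promoter among its 6 starts, and 1.55% of single promoters held it. A gene with more starts has more places for a match, and the number of starts per gene was not matched. A match is a description of letters, not of binding. The GENCODE model of Nr4a3 begins at 48045153, inside the window shown, and that of Nr4a1 reaches upstream of its window.

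Nr4a1 (Nur77; ENSMUSG00000023034.7, chromosome 15, 101254269 to 101274795) had 148 normalized counts with the control shRNA, 391 in the library labelled sh1 and 248 in that labelled sh2. The control was lowest, and the others were 2.63-fold and 1.67-fold higher. The difference was 1.07 (SE 0.37), with a limma p of 0.045 and an adjusted p of 0.71. Nr4a2 (Nurr1; ENSMUSG00000026826.13, chromosome 2, 57106830 to 57124003) went the other way, with 283 with the control shRNA, 169 in the library labelled sh1 and 94.0 in that labelled sh2. Here the control was highest, by 1.67-fold and 2.99-fold, and the difference was -1.16 (SE 0.45; adjusted p = 0.73 in limma).

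Nr4a3 (Nor1; ENSMUSG00000028341.9, chromosome 4, 48045153 to 48086447) was high mainly in 1 library, with 13.9 normalized counts under the control shRNA, 64.6 in the library labelled sh1 and 20.7 in that labelled sh2. Its control value stands for about 15 reads, and its difference was 1.34 (SE 0.82; adjusted p = 0.79 in limma). It met the 1.5-fold rule in both libraries only when libraries were scaled to equal totals, of the alternatives tried. All 3 receptors had lower values in the library labelled sh2 than in the library labelled sh1, by 1.57-fold for Nr4a1, 1.79-fold for Nr4a2 and 3.02-fold for Nr4a3, where 6.54% of all tested features were lower by at least 1.5-fold. As shares of the family's per-kilobase level, Nr4a2 took 56.8% in the control and 22.4% and 20.7% in the libraries labelled sh1 and sh2, and Nr4a1 took 41.4%, 72.1% and 76.3%. The leading receptor thus differed between the control and both others, while the family's sum of 133 normalized counts per kilobase lay between their 202 and 121.

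**Figure D3:**
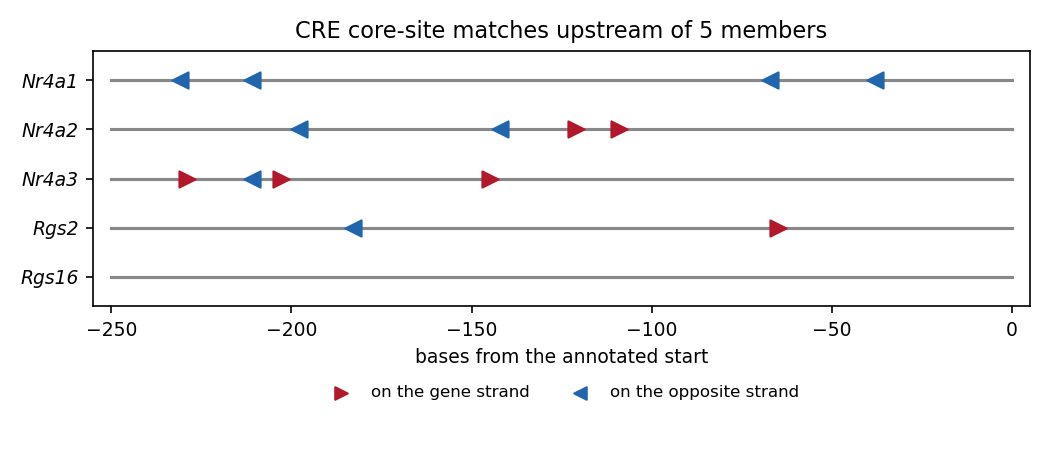
Positions of CRE core-site matches in the 250 bases before the RefSeq start of 5 members, in bases from the start (arrowheads point right for the gene's strand and left for the opposite strand). Nr4a1, Nr4a2 and Nr4a3 carry 4 matches each, Rgs2 carries 2 and Rgs16 carries 0.

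For all 6 RGS members the control lay between the libraries labelled sh1 and sh2, as it did in either direction for 29.7% of all tested features. The members did not share a direction. The library labelled sh1 was highest for Rgs1, Rgs2, Rgs10 and Rgs16, and that labelled sh2 for Rgs14 and Rgs19. For 3 of the 6, Rgs16, Rgs2 and Rgs1, a library was more than 1.5-fold from the control, while the distances of Rgs14 and Rgs19 were small. Rgs16 (ENSMUSG00000026475.7, chromosome 1, 153740349 to 153745468), which acts on Gi and Gq, had 4675 normalized counts with the control shRNA, 7885 in the library labelled sh1 and 1671 in that labelled sh2. That is 1.69-fold above and 2.80-fold below the control, and 4.72-fold between the 2 libraries. Among all tested features, 0.331% were at least 1.5-fold above the control in the library labelled sh1 and at least 1.5-fold below it in the library labelled sh2, and Rgs16 was the single member with that pattern.

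Rgs2 (chromosome 1, 143999338 to 144004161), which is known to act on Gq and to inhibit adenylyl cyclases, had 5839 normalized counts with the control shRNA, 7012 in the library labelled sh1 and 2541 in that labelled sh2. The library labelled sh2 was the low one, 2.30-fold under the control. Rgs1 (chromosome 1, 144242296 to 144249242), which restrains chemokine receptor signals in leukocytes, had 8141, 13974 and 6065. There the library labelled sh1 was the high one, 1.72-fold above the control. In limma the differences of both libraries from the control were -0.37 (SE 0.98) for Rgs16, -0.47 (SE 0.64) for Rgs2 and 0.18 (SE 0.53) for Rgs1, all smaller than their errors.

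The promoters of Rgs2 and Rgs16 are given for comparison, since both genes were lowest in the library labelled sh2 and their core-site counts differ. Capitals and window are as above.
Rgs2, chr1:144004150-144004399, minus strand: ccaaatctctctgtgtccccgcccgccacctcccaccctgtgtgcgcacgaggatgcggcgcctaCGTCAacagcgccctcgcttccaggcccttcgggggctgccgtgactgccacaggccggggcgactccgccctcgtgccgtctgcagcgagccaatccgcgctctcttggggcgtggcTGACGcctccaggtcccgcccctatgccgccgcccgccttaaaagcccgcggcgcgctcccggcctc
Rgs16, chr1:153740103-153740352, plus strand: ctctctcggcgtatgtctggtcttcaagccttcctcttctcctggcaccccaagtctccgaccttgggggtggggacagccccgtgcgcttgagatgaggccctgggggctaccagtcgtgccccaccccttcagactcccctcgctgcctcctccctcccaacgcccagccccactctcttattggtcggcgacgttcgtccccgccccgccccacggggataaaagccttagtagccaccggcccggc

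The Rgs2 window held 2 core sites, and at least 2 were found in 3.90% of all promoters. The Rgs16 window held 0. The other 3 RGS members were closer to the control. Rgs10, a small RGS protein of microglia and macrophages, had 584 normalized counts with the control shRNA, 620 in the library labelled sh1 and 415 in that labelled sh2. Rgs14, which carries both an RGS domain and a GoLoco motif, had 1053, 895 and 1065. Rgs19, also called GAIP, had 3305, 3206 and 3464.

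Compared with each other, the libraries labelled sh1 and sh2 were at least 1.5-fold apart in 9 of the 31 tested members, where 15.5% of all tested features were. The library labelled sh2 was the lower in 6 of these, against 6.54% of all tested features, namely Nr4a1, Nr4a2, Nr4a3, Rgs1, Rgs2 and Rgs16. It was the higher in 3, Pde4d, Pde7a and Adora2a, against 8.96% of all tested features. With 1 library per shRNA this comparison has no test.

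**Figure D4:**
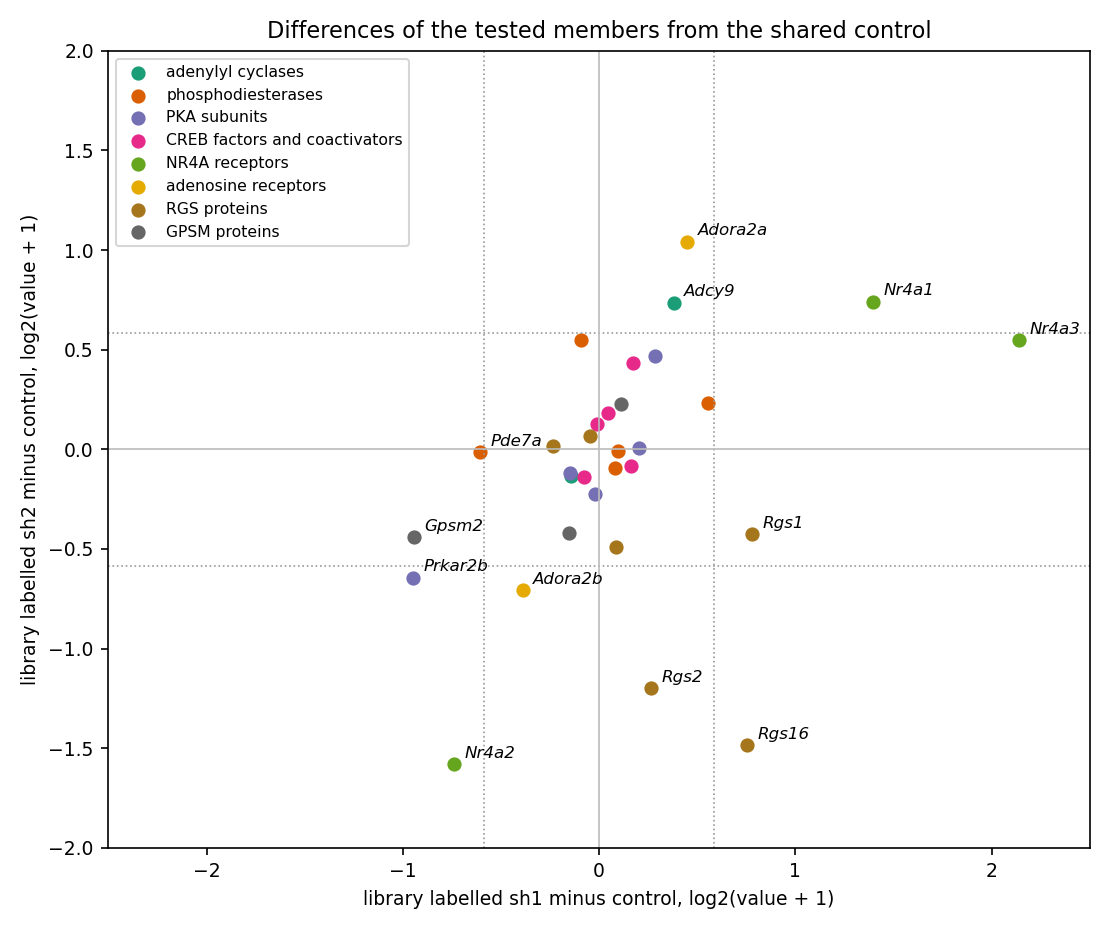
Each point is 1 of the 31 tested members, at its log2(value + 1) distance from the control, with the library labelled sh1 on the x axis and that labelled sh2 on the y axis, coloured by role. Both axes share the 1 control library, dotted lines mark 1.5-fold, and members past it in either library are named; Nr4a1 lies past both lines at the upper right, Nr4a2 and Prkar2b at the lower left and Rgs16 at the lower right.

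GPSM proteins, which hold Gi-family subunits in the GDP state through GoLoco motifs, included 1 member well below the control. Gpsm2 (LGN, also a mitotic spindle protein; chromosome 3, 108678638 to 108722309) had 2031 normalized counts with the control shRNA, 1057 in the library labelled sh1 and 1498 in that labelled sh2. The control was highest, by 1.92-fold and 1.36-fold, and the difference was -0.69 (SE 0.26), with a limma p of 0.058 and an adjusted p of 0.73. Gpsm3, a short form found mainly in blood cells, had 924, 997 and 1082. Gpsm1 had 119, 107 and 88.8. Gpsm3 took 52.9% of the per-kilobase level of the 3 genes in the control, 69.2% in the library labelled sh1 and 64.1% in that labelled sh2, and Gpsm2 took 44.7%, 28.2% and 34.1%.

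A further 106 genes of the pathway, from lists of other cyclases, phosphodiesterases, PKA partners, CREB factors and targets, receptors, RGS genes and G-beta and G-gamma subunits, were looked up, and 68 had a mean value of at least 10. By the 1.5-fold rule 10 were higher in both libraries and 2 lower (5.09% and 2.82% of all tested features). Of the 10, Rgs18, Pde7b and Gem had under 10 in the control and passed the filter on low values only through libraries where they are high. These 3 therefore had to be above the control in some library, and nothing is read from the count. The control was at or above 10 for the other 7. At an adjusted p of 0.05 limma called none of them, with a lowest value of 0.19, and 12 had an unadjusted p under 0.05, as did 6.94% of all tested features. The CREB coactivator Crebbp (CBP) had 846 normalized counts with the control shRNA, 2215 in the library labelled sh1 and 2214 in that labelled sh2. Creb5, a CREB relative, had 233, 932 and 519. For the prostacyclin receptor Ptgir, which couples to Gs, the values were 323, 696 and 971.

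Lower in both libraries were Adora3, a Gi-coupled adenosine receptor, with 509, 247 and 284 normalized counts, and Prkar1b, a PKA regulatory subunit, with 50.4, 27.9 and 20.2. Of 8 other textbook CREB target genes tested, 2 lay above the control in both libraries and 5 below it. Over all tested features these shares were 34.9% and 35.2%. For 1 gene the control lay between the libraries, as for 29.7% of all tested features, and nothing is read from so few genes. Among the 2 above was Gem (6.57, 14.4 and 30.8), a small GTPase low in the control. G-beta and G-gamma subunits had none of 8 past 1.5-fold in both libraries. Over all tested features 5.09% were higher and 2.82% lower by that rule, so nothing is read from this count. Rgs3, which acts on Gi and Gq, had 337, 812 and 907. Rgs18, a regulator found in platelets and myeloid cells, had 0.93 in the control, about 1 read, and 57.8 and 119 in the others. Pde7b, a cAMP-specific phosphodiesterase, had 2.97, 25.05 and 8.38, near the floor in the control.

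**Figure D5:**
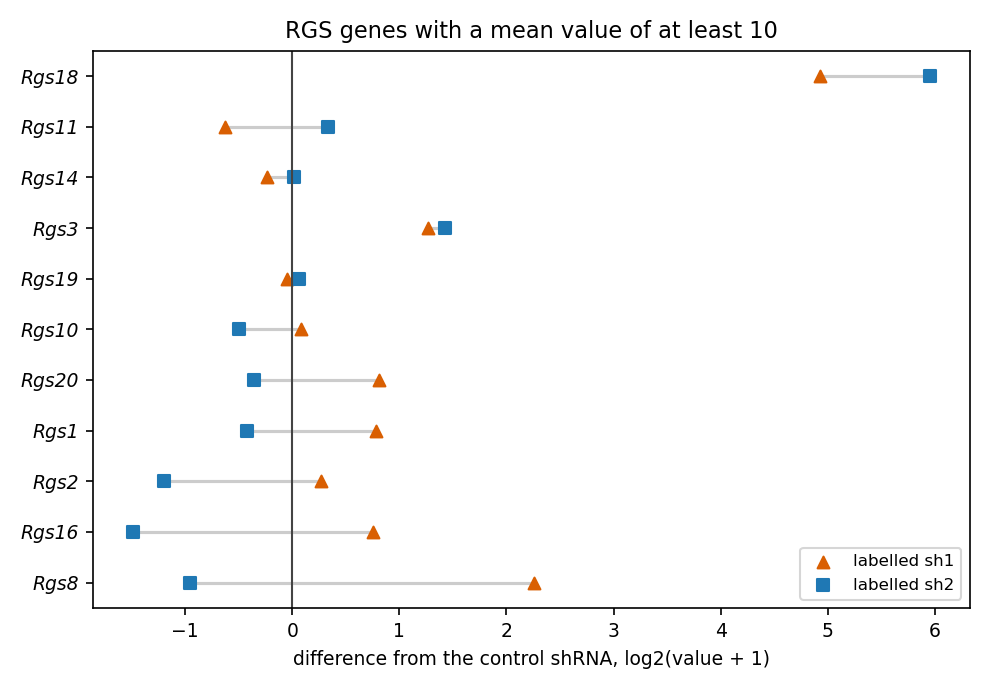
Difference from the control in log2(value + 1) for the 11 RGS genes with a mean value of at least 10, with a triangle for the library labelled sh1 and a square for the library labelled sh2, ordered by the difference between them. Rgs3 and Rgs18 lie to the right of the control line in both libraries, whereas Rgs16, Rgs2 and Rgs1 have their symbols on opposite sides. Rgs18, at 0.93 in the control, passed the filter only through the libraries where it is high, so a symbol of it had to lie there.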

How the data were processed

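Poly(A) RNA was sequenced from 3 libraries with a stranded kit, per the labels' protocols. The table holds normalized counts deposited by the authors, treated as a signal that is never negative. The submitters' processing notes name Salmon, DESeq, DESeq2 and GRCm38, without versions or roles. Low values (under 30) were within 0.1 of whole multiples of the commonest lowest value in only 79.0% to 82.5% of cases, too few to recover reads, so no count model was used.

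Symbols were matched for 54097 of 54331 identifiers. Positions and merged exon lengths came from GENCODE M21 (GRCm38), and promoter sequences from RefSeq (GRCm38.p6), found for 27 of 35 members. The 13877 features with a mean of at least 10 were fitted on log2(value + 1) with limma 3.58.1 in R 4.3.3 (variance trend, two-sided, Benjamini-Hochberg over all tested features), after a check on simulated data. Members and lists were chosen with earlier results of these data known. All members are named. Other pathway genes are named past 1.5-fold in both libraries (at most 6 per direction). Exceptions are Adcy2, Pde1b, Pde2a, Gem, Rgs8, Rgs11, Rgs13 and Rgs20, chosen after their values were seen.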

Additional observations from a re-analysis of the deposited data

How the results depend on the processing

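No member passed an adjusted p of 0.05 in limma under any of the 7 alternatives refitted as planned or with a length and GC trend removed, an alternative chosen after seeing the data. Over all features 0 passed as reported, 1 (the pseudogene Gm10443, chosen after its value was seen) with a minimum mean of 50 or with equal totals, and 14 with that trend removed. Members higher in both libraries numbered 1 as reported, 3 without a filter on low values (Adcy6 and Pde3b added), 2 with equal totals (Nr4a3 added), 2 with the trend removed (Adora2a added), 0 at a 2-fold rule and 10 by sign alone. Members lower in both numbered 2 as reported, 3 without a filter (Adcy3 added), 0 at 2-fold and 10 by sign alone. With a single library labelled GIV-depleted, 3 to 4 members were higher, 4 to 5 lower, and the members' median difference ran from -0.0148 to 0.0789. Of 308 member values under 10 alternatives, 15 changed sign, 11 of them in single-library values (Rgs1, Rgs2 and Rgs16 included), none for a mean difference past 1.5-fold. The causes were not tested. No paired analysis was possible with a single control library. One control, and about 15 reads for Nr4a3 in it, limit precision.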

Other observations

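Rgs16 has a neighbour of the same family that was not on the list. Rgs8 lies 40.0 kb before it on the same strand of chromosome 1 (153653025 to 153700323) and had 30.5 normalized counts with the control shRNA, 150 in the library labelled sh1 and 15.3 in that labelled sh2. The order of the 3 libraries was that of Rgs16, at a far lower level. Rgs20, elsewhere on the chromosome, had the same order at low values, with 27.7, 49.2 and 21.4. Of the other tested RGS genes off the list, Rgs11 had the reverse order, with 176, 114 and 222. Rgs3 and Rgs18 lay above the control in both libraries. The share of all tested features with the order of Rgs16 was not counted, so nothing is read from these matches.

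Of the RGS genes looked up, Rgs2, Rgs13, Rgs1 and Rgs18 lie in this order on the minus strand of chromosome 1 between 143999338 and 144775435. Within this cluster Rgs18 had 0.93, 57.8 and 119 normalized counts. Its control value stands for about 1 read. It passed the filter only through the libraries where it is high, so nothing is read from its difference. Rgs2 and Rgs1 had the control between the libraries labelled sh1 and sh2. Rgs13 was listed at 0 in both libraries labelled GIV-depleted and had 2.79 with the control shRNA.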
